A study of Mus musculus with 6 samples.

Results

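The comparison was between wild-type DN2b and wild-type DN2a progenitors, 2 starting populations of early T-cell precursors that differed at the sort in whether they had switched on Bcl11b. Cells were taken from the deposited matrices by a fixed filter of at least 200 genes, at most 2000 UMIs (unique molecular identifiers, each counting 1 captured RNA molecule) and at most 30% of UMIs on mitochondrial genes. This left 19489 cells of the DN2a start and 4968 cells of the DN2b start, together 24457 of the 60671 cells that passed in all 6 libraries. All 28048 genes of the matrices were compared.

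Early T-cell precursors in the thymus carry neither CD4 nor CD8 and pass through the double-negative (DN) stages DN1, DN2a and DN2b under Notch signalling. DN2a cells can still give rise to innate lymphoid cells (ILCs), natural killer (NK) cells and some myeloid cells, whereas DN2b cells are committed to the T lineage. Bcl11b encodes a zinc-finger transcription factor that is switched on at this step and is needed for commitment and for keeping NK and ILC genes down.

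Bone marrow progenitors enriched for CD117 came from mice of both sexes, a few months old and pooled within each batch, and were differentiated on OP9-DL1, a bone marrow stromal line that displays the Notch ligand Dll1. WT mice carried a yellow fluorescent protein reporter in both Bcl11b alleles, on a C57BL/6 background. DN2a cells (CD44+CD25+, reporter negative) and DN2b cells (CD44+CD25+, reporter positive) were sorted and cultured on OP9-DL1 for another 4 days, with Flt3-L, IL-7, SCF, IL-2 and IL-15 in the medium, before single-cell RNA sequencing. The same starts from ΔTE mice, whose reporter alleles both lacked the Bcl11b timing enhancer, were used as a second, separate pair of libraries. Because the cells were harvested 4 days after the sort, each library held the descendants of the sorted population and not the population itself. The sources used here do not say whether both starts of a genotype came from the same pool of mice and the same culture batch, so that the start cannot be told apart from such a batch. Each start of each genotype was 1 library, with no replicate culture, so that no difference had a test. Every library came from 3 reverse-transcription wells. These are technical parts of a single culture and show only how far wells differed.

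The DN2a library held 14555100 UMIs over all barcodes and the DN2b library 8321964, of which 7773877 and 2118170 were non-mitochondrial UMIs of kept cells. The median cell had 386 UMIs and 305 genes in the DN2a library, and 455 UMIs and 321 genes in the DN2b library. The libraries stood apart in mitochondrial RNA, with a median share of 13.3% in DN2a cells and 22.7% in DN2b cells. The limit of 30% removed 2.59% of DN2a cells and 40.9% of DN2b cells. Just inside that limit, between 25% and 30%, lay 1203 DN2a and 1727 DN2b cells, and just outside it, between 30% and 35%, lay 371 and 1404 cells. No barcode was shared between libraries.

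OP9-DL1 cells were still present, which was measured with 12 stromal marker genes, mostly collagens. Cells with at least 2 UMIs on these genes, called stromal-marked here, made up 9.86% (95% exact binomial interval 9.44 to 10.3) of the DN2a library and 3.56% (3.07 to 4.12) of the DN2b library. The 3 DN2a wells held between 9.21% and 10.7%. The DN2b wells held 1.53%, 3.34% and 4.61%, so that the libraries did not overlap. Among the cells above the mitochondrial limit, 48.7% of 518 DN2a cells and 34.1% of 3440 DN2b cells were stromal-marked. All intervals in this text are 95% intervals that cover counting error only, not the spread between cultures. A lower level of a gene in such summed cells can come from fewer cells that express it or from less RNA per cell, and these cannot be told apart.

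**Figure D1:**
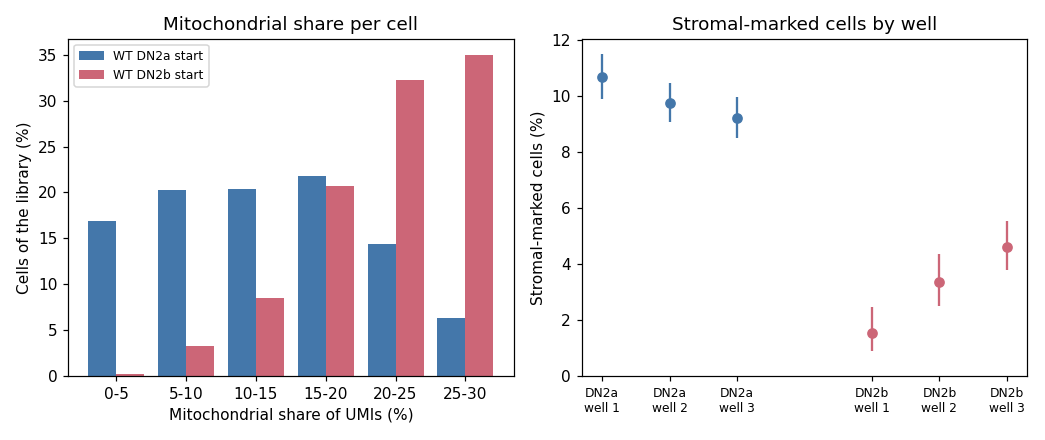
Left, bars give the percentage of kept cells of the WT DN2a (blue) and WT DN2b (red) libraries in each range of mitochondrial share. In the range of 20 to 25% lay 14.4% of DN2a and 32.3% of DN2b cells. Right, points give the percentage of stromal-marked cells in each of the 3 wells of a library, with exact binomial 95% intervals, and all 3 DN2a wells lay above all 3 DN2b wells.

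Levels were the UMIs of a gene summed over the cells of a library, per 1000000 non-mitochondrial UMIs (CPM), and ratios are DN2b to DN2a on the log2 scale. A gene was counted as measured when the mean of both libraries was at least 20 CPM, and was called when it differed at least 1.5-fold with all 3 wells of one library beyond all 3 wells of the other. Wells that do not overlap are thus part of every call and add no support to it. Of 7936 measured genes, 104 (1.31%) were called higher and 340 (4.28%) were called lower in DN2b. At 2-fold, 25 were higher and 173 lower. The median log2 ratio of measured genes was -0.01. Without the stromal-marked cells, 114 of 7678 genes (1.48%) were higher and 146 (1.90%) lower, of which 76 and 102 had also been called with all cells. The lower genes thus lost more calls than the higher genes when stromal cells were left out. When mitochondrial UMIs were counted in the totals, the split was 49 higher and 445 lower.

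**Figure D2:**
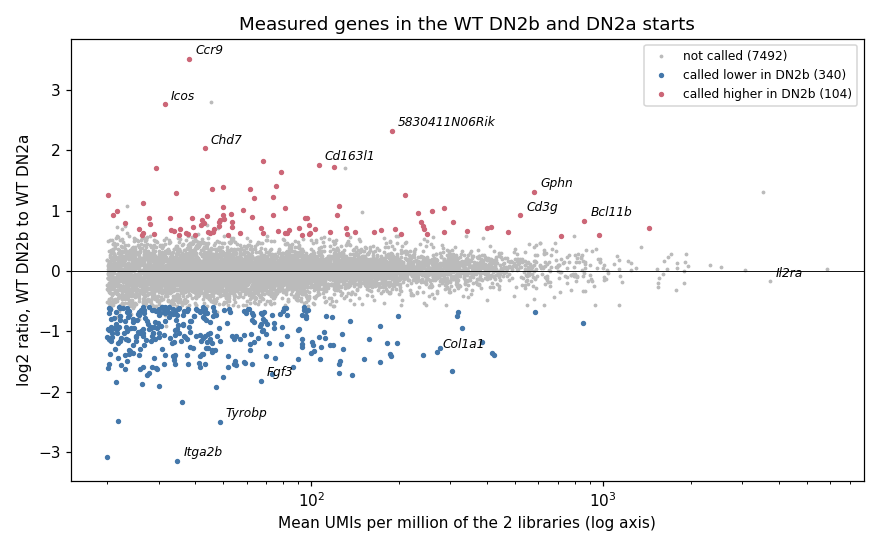
Each point is 1 of the 7936 measured genes, with its mean level in the WT DN2a and DN2b libraries on a log axis and its log2 ratio of DN2b to DN2a. Red points are the 104 genes called higher and blue points the 340 called lower in DN2b, with Ccr9 (3.51) at the top and Itga2b (-3.14) at the bottom.

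Bcl11b RNA, the gene that defined the sort, was still higher in the DN2b start after 4 days. It stood at 636, 607 and 626 CPM in the 3 DN2a wells and at 1014, 1135 and 1121 CPM in the 3 DN2b wells. The wells of the libraries did not overlap, and the log2 ratio was 0.83 (0.76 to 0.90). The DN2a start was thus not without Bcl11b RNA, and both starts lay above the WT DN1 start at 302 CPM. The ratio was 0.73 without stromal-marked cells and 0.93 when DN2a cells were weighted to the mitochondrial shares of DN2b cells. With neither stromal-marked cells nor a mitochondrial limit it was 0.81.

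The other proteins used in the sort differed little as RNA. Il2ra, which encodes CD25, the alpha chain of the IL-2 receptor, was at 3856, 3934 and 4020 CPM in the DN2a wells and 3423, 3618 and 3464 CPM in the DN2b wells. Its log2 ratio of -0.17 (-0.21 to -0.13) was under 1.5-fold, although the wells were apart. Whatever the fold, the wells were apart for 1218 of the 7936 measured genes with DN2b lower, and for 1005 with DN2b higher. Separated wells alone thus do not set Il2ra apart. Cd44, an adhesion receptor that falls later in T-cell development, had a ratio of -0.16 (-0.36 to 0.03), with overlapping wells.

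**Figure D3:**
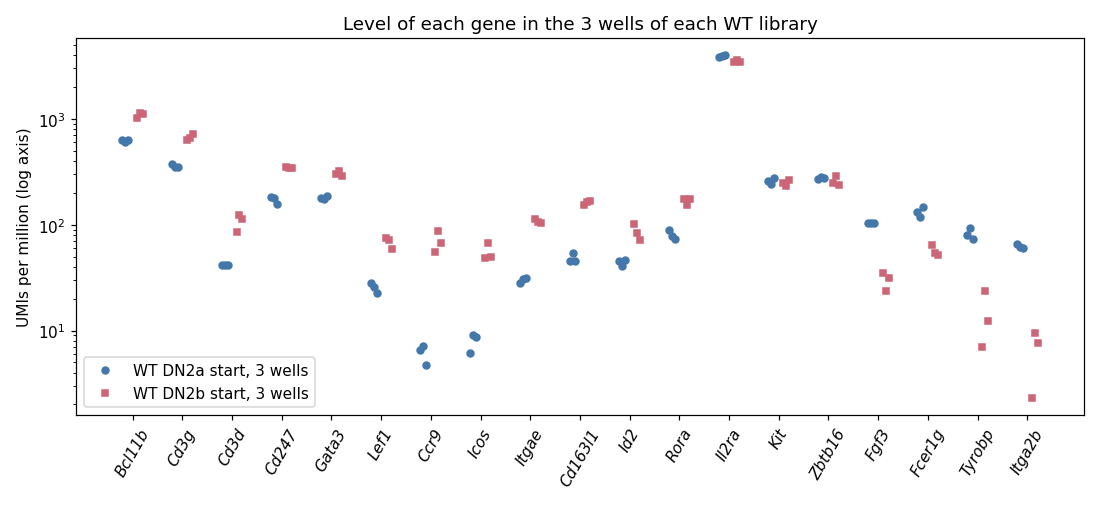
Each point is the level of 1 gene in 1 reverse-transcription well, in CPM on a log axis, with blue circles for the 3 wells of the WT DN2a start and red squares for the 3 wells of the WT DN2b start. From Bcl11b to Rora the DN2b wells lay above all DN2a wells, for Kit and Zbtb16 the wells overlapped, and from Fgf3 to Itga2b the DN2b wells lay below. For called genes the rule for a call requires such separation.

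The T-cell receptor complex and its signalling genes held more genes called higher than any other list. The list had 26 genes, of which 16 were measured, and 9 of these were called higher and 0 lower, against 1.31% of all measured genes called higher. The summed level of the list was between 1918 and 1951 CPM in the DN2a wells and between 3102 and 3213 CPM in the DN2b wells, a log2 ratio of 0.70 (0.66 to 0.74). The median ratio of the 16 measured genes was 0.67.

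Cd3g, Cd3d and Cd3e encode the CD3 chains that carry the signal of the T-cell receptor. Cd3g was at 375, 355 and 351 CPM in the DN2a wells and 632, 658 and 718 CPM in the DN2b wells, and its log2 ratio was 0.93 (0.83 to 1.02). Cd3d was at 41.4, 41.6 and 41.6 CPM against 85.7, 123 and 112 CPM, a ratio of 1.41 (1.16 to 1.65). The DN2b wells of both genes lay above every DN2a well, which the rule for a call requires. Cd3e was lower in level, with 26.9 to 34.2 CPM in DN2a wells and 39.4 to 56.8 CPM in DN2b wells, and its ratio was 0.72 (0.38 to 1.06). Cd247, the zeta chain of the receptor, went from 174 to 345 CPM, a ratio of 0.99 (0.86 to 1.12).

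Genes that signal alongside or downstream of the receptor were called as well. Cd28, the costimulatory receptor, was at 13.8 CPM in DN2a and 44.9 CPM in DN2b cells, a log2 ratio of 1.70 (1.29 to 2.12). Skap1, an adaptor that links the receptor to integrin adhesion, went from 124 to 297 CPM (1.26, 1.11 to 1.41). The adaptor Lat (0.70) and the Ras activator Rasgrp1 (0.65) were called higher too. Rasgrp1 was no longer called without stromal-marked cells, at 0.57. Lck, the kinase that first phosphorylates the CD3 chains, had a ratio of 0.28 (0.15 to 0.42) and was not called. Cd4, Cd8a and Cd8b1, which mark later thymocytes, were listed at 0 UMIs in both libraries.

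The promoters of Cd3d, Cd3g and Ccr9 are shown as examples that no fixed rule chose. Cd3d and Cd3g are CD3 genes called higher, and Ccr9 had the largest ratio of all called genes. Each line gives the 250 bases before the annotated start from RefSeq on GRCm38.p6, read 5′ to 3′ on the strand of the gene. Cd3d is chr9:44981536-44981785 on the plus strand, Cd3g is chr9:44980432-44980681 on the minus strand and Ccr9 is chr9:123766961-123767210 on the plus strand. Capitals mark CTTTGA, a core of TCF and LEF sites, or AGATAA, a core of GATA sites, on either strand. TGTGGT, a core of RUNX sites, was searched on both strands too, and no matches overlapped.
Cd3d: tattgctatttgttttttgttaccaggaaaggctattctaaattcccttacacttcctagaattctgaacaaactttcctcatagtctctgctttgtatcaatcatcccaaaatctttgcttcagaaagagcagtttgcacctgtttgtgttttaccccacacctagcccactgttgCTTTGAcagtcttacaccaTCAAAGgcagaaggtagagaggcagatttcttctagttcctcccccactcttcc
Cd3g: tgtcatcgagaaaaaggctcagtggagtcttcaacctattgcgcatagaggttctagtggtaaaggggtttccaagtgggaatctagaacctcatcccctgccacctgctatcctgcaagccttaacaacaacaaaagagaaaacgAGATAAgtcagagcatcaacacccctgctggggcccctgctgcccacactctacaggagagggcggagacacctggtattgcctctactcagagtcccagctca
Ccr9: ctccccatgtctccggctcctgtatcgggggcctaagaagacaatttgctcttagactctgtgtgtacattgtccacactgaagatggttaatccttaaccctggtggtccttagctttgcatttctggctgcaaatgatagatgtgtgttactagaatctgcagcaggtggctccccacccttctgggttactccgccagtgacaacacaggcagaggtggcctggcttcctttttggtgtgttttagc
The Cd3d window held 2 matches to CTTTGA, which begin 73 and 54 bases before the start, and the Cd3g window held 1 match to AGATAA, 104 bases before the start. The Ccr9 window held none of the 3 motifs. Of 27025 RefSeq promoters cut to the same 250 bases, 14.1% held CTTTGA, 10.3% AGATAA and 14.2% TGTGGT on either strand. A match describes letters only, and binding was not measured.

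Of the genes of V(D)J recombination, Dntt was called higher and the other 4 measured genes were not, beside 1.31% of all measured genes called higher. Dntt encodes terminal transferase, which adds untemplated bases at the joints of receptor genes. It was at 36.2, 49.7 and 44.4 CPM in the DN2a wells and 123, 107 and 93.1 CPM in the DN2b wells, a log2 ratio of 1.23 (0.98 to 1.48). The wells did not overlap. Rag2, a subunit of the recombinase, was at 20.8 and 24.5 CPM, with a ratio of 0.24 (-0.24 to 0.70) whose interval spans 0.

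Among T-lineage transcription factors, 5 of 20 measured genes were called higher and 0 lower, against 1.31% and 4.28% of all measured genes. The summed level of the list had a log2 ratio of 0.29 (0.27 to 0.32) and the median gene a ratio of 0.26. Besides Bcl11b, these were Lef1, Ets1, Gata3 and Tox. Lef1, an HMG-box factor related to Tcf7, was at 28.2, 25.7 and 22.8 CPM in DN2a wells and 74.1, 71.0 and 58.9 CPM in DN2b wells, a ratio of 1.36 (1.04 to 1.69). Gata3, which is needed for T-cell specification, went from 180 to 302 CPM (0.75, 0.61 to 0.88). Ets1 had a ratio of 0.77 (0.55 to 0.98). Tox, an HMG-box factor, had 0.59 (0.52 to 0.66) and was not called without stromal-marked cells, at 0.50.

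Several abundant factors of the list differed less. Runx1, which acts from the earliest progenitors on, was at 1897 and 2010 CPM, a log2 ratio of 0.08 (0.03 to 0.13). Tcf7, the first T-cell factor induced by Notch, had a ratio of 0.30 (0.22 to 0.39) and Tcf12, an E protein, 0.29 (0.21 to 0.36). These were under the 1.5-fold threshold. In the Notch list, 2 of 14 measured genes were called higher, Gata3 and Dtx1, beside 1.31% of all measured genes, and the summed level had a ratio of 0.01 (-0.01 to 0.04). Dtx1, a ubiquitin ligase and Notch target, went from 53.1 to 109 CPM (1.04, 0.81 to 1.28). Notch1 itself had a ratio of 0.25 (0.14 to 0.36).

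The largest ratio of all called genes belonged to Ccr9, the receptor for the thymic chemokine CCL25. It was at 6.61, 7.10 and 4.71 CPM in the DN2a wells and 55.6, 86.7 and 66.5 CPM in the DN2b wells. All DN2b wells were far above all DN2a wells, and DN2b was 11.4-fold higher, a log2 ratio of 3.51 (3.03 to 4.01). The WT DN1 start had 0.860 CPM. Because these levels rest on 48 and 149 UMIs, the interval is wide, but its lower end is above the ratio of every other named gene.

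Of 21 measured stage markers on the cell surface, 5 were called higher, namely Ccr9, Itgae, Tnfrsf9, Thy1 and Ccr7, and 2 lower, beside 1.31% and 4.28% of all measured genes. Itgae, the CD103 integrin chain, was at 28.2, 30.7 and 31.4 CPM in DN2a wells and 113, 106 and 104 CPM in DN2b wells, a log2 ratio of 1.82 (1.55 to 2.09). Tnfrsf9 encodes 4-1BB, a costimulatory receptor, and had a ratio of 1.26 (0.77 to 1.74). Thy1, the T-cell surface protein CD90, went from 572 to 859 CPM (0.59, 0.51 to 0.67), and the chemokine receptor Ccr7 from 28.0 to 42.5 CPM (0.60, 0.23 to 0.96). Thy1 and Ccr7 were near the threshold and were not called without stromal-marked cells, at 0.50 and 0.52. The tetraspanins Cd63 (-1.52) and Cd9 (-0.74) were called lower with all cells, but not without stromal-marked cells. Their ratios there were -1.77 (-2.71 to -0.95), at a mean level under 20 CPM, and -0.46 (-1.03 to 0.06).

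Genes linked to innate-like lymphocytes were divided. Among ILC and NK transcription factors, 4 of 8 measured genes were called higher and 0 lower, with the background of 1.31% and 4.28% given above. Id2, the inhibitor of E proteins that ILCs require, was at 45.8, 40.6 and 46.7 CPM in DN2a wells and 102, 83.6 and 72.2 CPM in DN2b wells, a log2 ratio of 0.89 (0.62 to 1.16). Rora, a nuclear receptor needed for ILC2s, went from 79.7 to 169 CPM (1.08, 0.89 to 1.27), and Maf from 67.0 to 124 CPM (0.88, 0.66 to 1.10). The fourth was Gfi1 (0.69, 0.26 to 1.12), a repressor. After thinning to 200 UMIs, Rora was seen in 5.41% of stromal-marked DN2a and 7.91% of stromal-marked DN2b cells, against 1.28% and 3.04% of all cells. Without these cells the ratios of Rora and Maf were 1.76 and 1.94. The Gfi1 ratio was 0.60 there and was still called.

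Zbtb16, which encodes PLZF, the factor of ILC precursors, did not go with them. It was at 273, 285 and 276 CPM in the DN2a wells and 250.1, 290.2 and 240 CPM in the DN2b wells, a log2 ratio of -0.12 (-0.26 to 0.02). The wells overlapped, and the lower end of the interval was under the 1.5-fold threshold as well.

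Among 16 measured surface and effector genes of ILCs and NK cells, 3 were called higher and 4 lower, beside 1.31% and 4.28% of all measured genes. Icos, the inducible costimulator, had the second largest ratio of all called genes. It was at 6.17, 9.12 and 8.64 CPM in DN2a wells and 48.6, 67.8 and 49.4 CPM in DN2b wells, a log2 ratio of 2.76 (2.30 to 3.22). The IL-25 receptor chain Il17rb had a ratio of 0.62 (0.38 to 0.86) and the chemokine receptor Ccr2 0.87 (0.65 to 1.09). Il17rb was not called without stromal-marked cells, at 0.56.

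On the lower side of the same list stood Tyrobp, Fcer1g, Itga1 and Itga2b. Tyrobp and Fcer1g encode adaptors that pass on signals of NK and myeloid receptors. Tyrobp was at 80.7, 92.6 and 72.7 CPM in DN2a wells and 6.95, 23.7 and 12.3 CPM in DN2b wells, a log2 ratio of -2.50 (-3.07 to -1.98). Fcer1g was at 132, 117 and 146 CPM against 64.8, 53.6 and 51.3 CPM, a ratio of -1.26 (-1.55 to -0.98). For both genes each DN2b well was below each DN2a well. Without stromal-marked cells the ratios were -2.55 and -1.36, so that they did not shrink. The cytotoxic granule genes Gzma (-0.33, -0.41 to -0.26), Gzmb (0.07, -0.08 to 0.21) and Nkg7 (-0.05, -0.16 to 0.05) were not called.

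Of the 6 measured genes known from gamma-delta T cells, 4 were called higher and 0 lower in DN2b, beside 1.31% of all measured genes called higher. Their median log2 ratio was 1.12, and the summed ratio was 0.53 (0.48 to 0.59). Of these, 5830411N06Rik, a scavenger receptor gene, was at 69.2, 64.5 and 56.2 CPM in DN2a wells and 333, 257 and 343 CPM in DN2b wells, a log2 ratio of 2.32 (2.15 to 2.49). Cd163l1, a related scavenger receptor gene with which reads could be shared, went from 48.4 to 163 CPM (1.76, 1.54 to 1.97). Sox13, an HMG-box factor of gamma-delta cells, went from 34.6 to 88.3 CPM (1.35, 1.07 to 1.63), and Maf is also a member. The matrix held 12 of the 20 genes of the list, and 6 of these were measured.

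Among the other leading genes, Chd7, a chromatin remodeller, was at 18.5, 12.2 and 21.2 CPM in DN2a wells and 67.2, 74.1 and 67.5 CPM in DN2b wells, a log2 ratio of 2.03 (1.68 to 2.38). Plcl1, a phospholipase C-like protein without catalytic activity, had 1.72 (1.52 to 1.92), Lztfl1, a cilium trafficking protein, 1.64 (1.40 to 1.89), and Fam129a 1.39 (1.08 to 1.69). All 4 were called with and without stromal-marked cells. Sh2d1a, the signalling adaptor SAP, Hmga2, Lgals3 and Gprin3 entered the highest genes when stromal-marked cells were left out, with ratios of 2.49, 2.09, 2.51 and 2.45. In all cells Hmga2 (1.01) and Lgals3 (0.79) had smaller ratios, Gprin3 had 0.20, and Sh2d1a had 2.62 at a mean level under 20 CPM.

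Progenitor genes that T-cell precursors shut off were lower, but not as a whole list. Of 16 measured legacy progenitor genes, 4 were called lower and 1 higher, against 4.28% and 1.31% of all measured genes, the median log2 ratio was -0.29 and the summed ratio -0.16 (-0.21 to -0.11). The 4 lower genes encode myeloid and stem-cell proteins. Bcl11a, a zinc-finger factor of progenitors, was at 128, 137 and 121 CPM in DN2a wells and 57.9, 55.2 and 56.1 CPM in DN2b wells, a ratio of -1.20 (-1.49 to -0.92). Spi1, which encodes PU.1, went from 37.8 to 19.8 CPM (-0.93, -1.43 to -0.46), Hhex from 36.9 to 19.4 CPM (-0.93, -1.44 to -0.46), and Mpo, the myeloperoxidase of granulocyte precursors, from 33.8 to 13.7 CPM (-1.30, -1.91 to -0.75).

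All 4 stayed called without stromal-marked cells, where Mycn and Ptpn3 joined them. The higher gene was Hmga2. The receptor gene Kit, at 258 and 251 CPM, had a ratio of -0.04 (-0.18 to 0.10) and overlapping wells. Erg (-0.24), Cd93 (-0.10) and Runx2 (-0.03) were not called either.

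The largest negative ratio among called genes was that of Itga2b, the CD41 integrin chain of megakaryocytes and early progenitors. It was at 65.7, 61.2 and 60.9 CPM in the DN2a wells and 2.32, 9.46 and 7.60 CPM in the DN2b wells, a log2 ratio of -3.14 (-3.99 to -2.40). The DN2b level rests on 15 UMIs. Lrrc4c, a cell adhesion gene, went from 35.8 to 4.25 CPM (-3.07, -4.22 to -2.13). Fgf3, a fibroblast growth factor, was at 105, 104 and 104 CPM in DN2a wells and 34.7, 23.7 and 31.4 CPM in DN2b wells (-1.81, -2.21 to -1.44). March1, a ubiquitin ligase of antigen-presenting cells, had -2.16 (-2.77 to -1.61).

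These 4 genes and Tyrobp were called lower with and without stromal-marked cells. Hbb-bt, a beta-globin gene with a near-identical copy, so that its count is uncertain, went from 460 to 146 CPM (-1.66, -1.83 to -1.49), while Hba-a1, Hba-a2 and Car1 were listed at 0 in both libraries. The summed ratio of the erythroid list was -0.62 (-0.70 to -0.53), and 0 cells of either library carried 2 UMIs on the 3 erythroid class markers. A count of 0 allows shares of up to 0.0189% in DN2a and 0.0742% in DN2b by the exact interval. Ncf1, a subunit of the phagocyte oxidase, had -1.58 (-2.20 to -1.02), and Perp -1.78 in all cells and -1.86 without stromal-marked cells, where alone it was called.

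The stromal markers themselves were called lower in DN2b, all 12 of 12, beside 4.28% of all measured genes. Their sum was between 2279 and 2511 CPM in the DN2a wells and between 410 and 1242 CPM in the DN2b wells, a log2 ratio of -1.33 (-1.40 to -1.26). The direction depended on the mitochondrial limit, and with no limit the ratio was 0.59. Of the 12 lowest called genes, Nsg1, Ank3, Dkk3, Fbln5, Ccn1, Cdh13 and Rcn3 were not called without stromal-marked cells, where their mean levels fell under 20 CPM, and their ratio changed sign with no mitochondrial limit. Without stromal-marked cells Ank3 still had -1.88 (-4.22 to -0.22), close to its -1.91 with all cells, while Nsg1 had -1.43 (-4.58 to 0.63) and Dkk3 -1.13 (-3.52 to 0.60). The loss of a call at these levels does not show that the difference was gone. Itga1 (-1.45) and Ebf1 (-1.26) were also not called there, at -0.54 (-1.85 to 0.57) and -1.20 (-2.32 to -0.25), and changed sign with no mitochondrial limit, although they stood in the lists of ILC and NK genes and of B-cell genes, and Ebf1 was the 1 measured B-cell gene. Whether these genes were lower in the progenitors themselves was not tested.

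Markers of other blood cells were rare in both libraries. After each cell was thinned to 200 non-mitochondrial UMIs, 37.7% of DN2a cells and 44.6% of DN2b cells carried at least 2 UMIs on 10 T-lineage markers. On 10 ILC or NK markers the shares were 5.99% (5.66 to 6.34) and 5.64% (5.01 to 6.31), with overlapping wells. On 3 mast cell or basophil markers they were 1.61% and 1.17%, and Cpa3, a protease gene that progenitors also express, was at 682 and 588 CPM. Myeloid, antigen-presenting and B-cell classes held at most 0.328% of a library, and the neutrophil class 0 cells. Summed neutrophil markers had a log2 ratio of -0.74 (-1.09 to -0.41), with Mpo as the gene called lower, and Ngp, Camp and Cd177 listed at 0. The list of mast cell, basophil and megakaryocyte markers had -0.33 (-0.42 to -0.24) with Itga2b as the gene called lower. The antigen-presenting markers had -0.31 (-0.51 to -0.12) with none called. In the myeloid list, at 112 and 169 CPM (0.59, 0.40 to 0.77), Ccr2 was the 1 measured member.

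**Figure D4:**
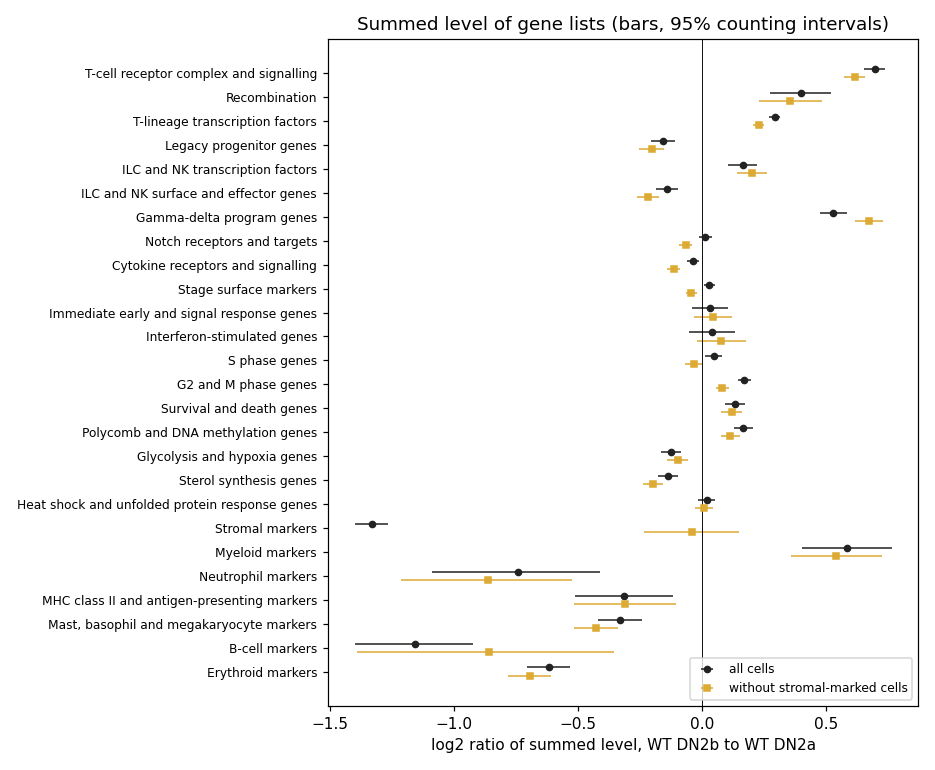
Points give the log2 ratio of DN2b to DN2a for the summed level of each gene list, with 95% counting intervals, for all cells (black circles) and without stromal-marked cells (yellow squares). T-cell receptor genes lay at 0.70 and 0.62, legacy progenitor genes at -0.16 and -0.20, and stromal markers at -1.33 and -0.04. The same stromal genes chose the cells left out, so their second value follows from that choice and is no separate result.

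Several programmes held no called gene. Of all measured genes only 1.31% were called higher and 4.28% lower, so that no call in such short lists is no result about them. None of the 14 measured cytokine receptor and signalling genes was called, and their sum had a log2 ratio of -0.04 (-0.06 to -0.01). The sum of 32 S phase genes had 0.05 (0.01 to 0.08) and that of 33 G2 and M phase genes 0.17 (0.15 to 0.20), again with 0 genes called. Mki67, the proliferation marker, was at 830 and 1064 CPM (0.36, 0.29 to 0.43). No gene was called among immediate early genes (sum 0.03), interferon-stimulated genes (0.04), survival and death genes (0.13), Polycomb and DNA methylation genes (0.17), glycolysis and hypoxia genes (-0.12) or genes of heat shock and the unfolded protein response (0.02).

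Sterol synthesis genes had a sum of -0.14 (-0.18 to -0.10). Insig1 (-0.60), which holds back sterol synthesis, was the 1 gene of 18 called lower, beside 4.28% of all measured genes. Without stromal-marked cells 0 genes of this list were called. Ribosomal protein genes, 79 measured, had a summed ratio of -0.15 (-0.17 to -0.14) with none called. The list of nuclear-retained RNAs had Lars2 as its 1 measured member, at 145 and 211 CPM. Whether its RNA stayed in the nucleus was not measured. It was not called, and its DN2b level rests on well 3, with 148, 121 and 291 CPM in the 3 DN2b wells. In ΔTE its log2 ratio was -2.99, and it was not called there either, because the wells were not apart.

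After thinning to 200 UMIs, Bcl11b was seen in 11.2% of DN2a and 18.8% of DN2b cells, against 2.97% and 6.78% of their stromal-marked cells. The latter are used here as a background. Whether they carry free RNA alone was not tested, and Il2ra was seen in 17.1% and 10.7% of them. The median depth was 516 and 671 UMIs in stromal-marked cells and 377 and 451 UMIs in the other cells. Cd3g was seen in 5.84% and 11.8% of cells, with 1.82% and 2.82% in stromal-marked cells. Both Bcl11b and Cd3g were thus above this background in each start. Ccr9 was seen in 0.118% and 1.45% of cells, and its DN2a share was near the 0.0521% of stromal-marked DN2a cells. Tyrobp was seen in 1.63% of DN2a and 0.242% of DN2b cells, against 0.573% of stromal-marked DN2a cells and 0 of 177 stromal-marked DN2b cells, which allows up to 2.06%. The DN2b share was thus not above what its own background allows. Kit (5.11% and 4.83%) and Zbtb16 (4.77% and 4.51%) had like shares in both starts.

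The differences were also looked at within cells that carried a Bcl11b UMI and within those that did not, a split added after seeing the data. It was made after thinning to 200 UMIs and without stromal-marked cells. It left 2120 DN2a and 922 DN2b cells with a Bcl11b UMI, and 15448 and 3869 without one. Cd3g had a log2 ratio of 0.71 (0.44 to 0.98) in cells with a Bcl11b UMI and 0.94 (0.79 to 1.09) in cells without. Ccr9 had 2.59 (1.36 to 3.98) and 3.92 (3.08 to 4.85), and 5830411N06Rik 1.71 (1.16 to 2.26) and 2.11 (1.83 to 2.39). Each of these was higher in DN2b on both sides of the split. Fcer1g was lower on both sides, at -2.19 (-4.13 to -0.73) and -1.35 (-1.81 to -0.91). Cd3d, Cd247, Skap1, Gata3, Itgae, Cd163l1, Plcl1 and Rora also had intervals above 0 on both sides. Cd247, for example, had 1.33 (0.89 to 1.77) in cells with a Bcl11b UMI. The intervals of Kit and Zbtb16 spanned 0 on both sides. For Lef1, Fgf3 and Itga2b, and also for Icos, Id2 and Tyrobp, the cells with a Bcl11b UMI gave too few UMIs to show a difference. Lef1 had 0.31 (-1.26 to 1.74) in these cells and 1.72 (1.19 to 2.25) in those without, Fgf3 -1.07 (-2.63 to 0.22) and -1.71 (-2.30 to -1.17), and Itga2b -1.61 (-7.10 to 1.36) and -2.88 (-4.21 to -1.81). At this depth a cell whose Bcl11b RNA was not captured cannot be told apart from a cell without it.

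The ΔTE libraries gave a second look at the same step in another genotype and other cultures. With the same rule, 192 of 7869 genes (2.44%) were higher and 182 (2.31%) lower in ΔTE DN2b than in ΔTE DN2a cells. The genes called higher in both genotypes numbered 60, which was 57.7% of the WT list and 31.2% of the ΔTE list. Those called lower in both numbered 49, or 14.4% of the WT and 26.9% of the ΔTE list. Of the 104 genes higher in WT, 98 had a ratio above 0 in ΔTE, and of the 340 lower genes, 320 had a ratio below 0. The same shares over all measured genes were not counted, so these counts have no background. Of the 340, 102 were also called without stromal-marked cells in WT. Whether the shared direction of the lower genes follows the stromal cells was not tested. No gene was called in opposite directions. The ΔTE DN2a wells held 3.31%, 13.7% and 1.87% stromal-marked cells, and 11 of the 12 stromal markers, all but Pdgfrb, were not called there under the rule on wells and levels. The summed log2 ratio of all 12 in ΔTE was nevertheless -1.87 (-1.99 to -1.74).

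Among the leading genes, Ccr9 had 3.55 (3.14 to 3.98) in ΔTE and Icos 3.00 (2.64 to 3.37), next to 3.51 and 2.76 in WT. Cd3d, at 2.50, and Cd3g, at 1.75, had larger ratios in ΔTE than in WT. Bcl11b itself was at 326 CPM in ΔTE DN2a and 704 CPM in ΔTE DN2b cells, a ratio of 1.11. Tyrobp and Fcer1g, in contrast, had ratios of -0.60 and -0.46 in ΔTE against -2.50 and -1.26 in WT. Their ΔTE DN2b levels of 91.3 and 246 CPM lay far above the WT DN2b levels of 14.6 and 54.8 CPM. None of these differences between genotypes had a test, since each ratio rests on 1 pair of libraries.

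**Figure D5:**
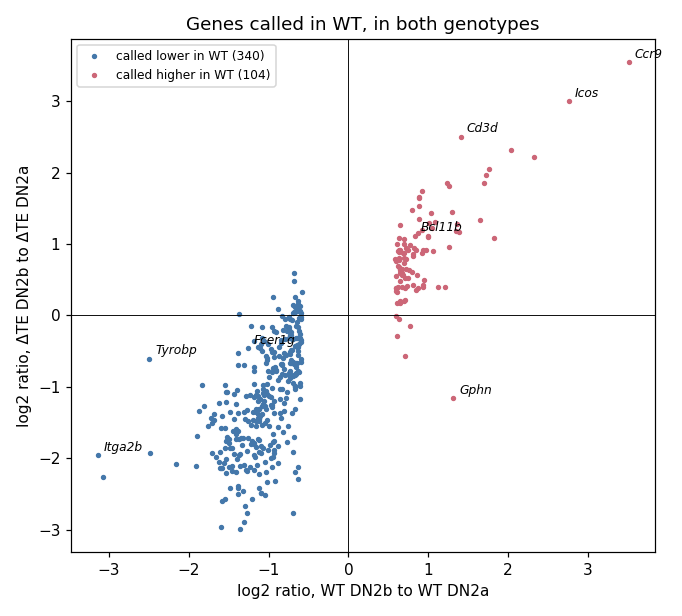
Each point is a gene called higher (red, 104) or lower (blue, 340) in WT, with its log2 ratio of DN2b to DN2a in WT on the horizontal axis and in ΔTE on the vertical axis. Most points have the same sign on both axes, with Ccr9 and Icos highest in both, Tyrobp at -0.60 in ΔTE and Gphn at -1.16 as the lowest of the red points.

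Position in the genome was a feature the selection did not use. In the order of RefSeq protein-coding genes on GRCm38.p6, 103 of the 104 higher genes could be placed, and 3 pairs of them were direct neighbours. They were Cd3g with Cd3d, Cd3d with Cd3e, and Lztfl1 with Ccr9, all on chromosome 9. The gene models of these pairs did not overlap. The 338 placed lower genes held 16 neighbouring pairs, among them Col3a1 with Col5a2 and Col6a2 with Col6a1, and 1 pair overlapped, Col4a1 with Col4a2. Of these collagen genes, Col3a1, Col5a2, Col4a1 and Col4a2 are among the stromal markers. In 2 further pairs the neighbours were called in opposite directions, Rasgrp1 (0.65) with Thbs1 (-1.08) and Hmga2 (1.01) with Msrb3 (-1.03). Neighbouring pairs over all measured genes were not counted, so the counts of pairs have no background.

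Some abundant genes were uneven between the wells of the DN2b library. Camk1d, a calcium-dependent kinase, was at 1367, 1468 and 8705 CPM in the 3 DN2b wells, and Il31ra, a cytokine receptor chain, at 46.3, 37.9 and 361 CPM. Neither was called, because at least 1 DN2b well lay within or below the range of the DN2a wells. Gphn, which encodes the scaffold protein gephyrin, was called higher at 461, 446 and 1205 CPM against 320.0 to 345 CPM in DN2a wells, and its size rests on well 3.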

How the data were processed

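Single-cell RNA was measured by sci-RNA-seq3 in 6 libraries, of which WT DN2a and WT DN2b were compared and both ΔTE DN2 libraries were set beside them. The values deposited by the authors are raw counts, namely UMIs per gene and cell barcode, without normalization or filtering of cells. The submitters' processing notes name the build mm9, the aligner is not given in the sources used here, and counting by strand is not stated, so that overlapping and antisense genes cannot be told apart. The third barcode field gave the reverse-transcription well. Cells were filtered with the limits stated in the study (at least 200 genes, at most 2000 UMIs, at most 30% mitochondrial UMIs), genes were not filtered by cell number, and no doublet caller was run. The study's set of cells, which it also downsampled, was not rebuilt by this filter, which left fewer cells. The DN2a and DN2b libraries held 134 and 318 deeper cells, which were left out.

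UMIs were summed per library and well and scaled to 1000000 non-mitochondrial UMIs (CPM). Ratios have exact conditional 95% intervals and shares exact binomial ones (Python 3.11.15, numpy 2.4.6, pandas 2.3.3, scipy 1.17.1, matplotlib 3.10.9). R 4.3.3 with edgeR 4.0.16 gave TMM factors for 1 alternative. No statistical test between conditions was made, with 1 library per condition. The code for ratios and calls was checked on simulated counts.

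The genes compared, the 27 gene lists and the rules were chosen with earlier results of these data known. Genes were named if they were Bcl11b, Il2ra or Cd44, among the 12 highest or 12 lowest called genes, among the 8 highest or 8 lowest called without stromal-marked cells, or members of a list that were called or were among its 4 most abundant uncalled genes. Genes with uneven wells, neighbouring genes and the genes at 0 were named after their values were seen. In all, 22 alternatives were planned and 2 were added after seeing the data.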

Additional observations from a re-analysis of the deposited data

Results flagged for a closer look

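Gphn had a log2 ratio of DN2b to DN2a of 1.31 in WT and of -1.16 (-1.29 to -1.03) in ΔTE, which stood out because a gene called in WT went at least 1.5-fold the other way in the second genotype. Its WT value rests in part on 1 DN2b well at 1205 CPM. In ΔTE it was at 866 CPM in DN2a and 388 CPM in DN2b, and was not called there because the wells were not apart. The difference between genotypes was not tested.

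Igf2r, the receptor that clears IGF2, had a log2 ratio of -0.68 (-1.22 to -0.18) in WT, from 224 and 38 UMIs, and of 0.59 in ΔTE, with 93 and 37 UMIs. Without stromal-marked cells the WT ratio was 1.29 (0.56 to 2.01), in the same direction as in ΔTE. Igf2r was not called in ΔTE, and the difference was not tested.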

How the results depend on the processing

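With 1 library per condition, the limits are those of 1 culture each, and the mitochondrial share, the stromal share and a batch of mice or culture cannot be told apart from the start. The DN2b library gave 2118170 of the UMIs and the DN2a library 7773877, so that genes near 20 CPM rest on fewer UMIs in DN2b. No paired analysis was possible because each condition had 1 library.

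The 104 higher genes became 177 at a mitochondrial limit of 20%, 350 with no limit, 49 with mitochondrial UMIs in the totals, 63 at 50 CPM or more, 293 with no minimum and 25 at 2-fold. The 340 lower genes became 130 with no mitochondrial limit, 146 without stromal-marked cells, 128 without these and with no limit, 154 without these and with cells weighted by mitochondrial share, 619 at 10 CPM or more, 112 at 50 CPM or more, 1627 with no minimum and 173 at 2-fold. Leaving out 1 well gave 107 to 163 higher and 332 to 409 lower genes, and the 163 came without DN2b well 3.

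The Bcl11b log2 ratio of 0.83 was 0.70 with no mitochondrial limit, 0.68 with mitochondrial UMIs in the totals, 0.73 without stromal-marked cells and 0.93 with weighted cells, and 0.81 to 0.86 without 1 well. The sum of T-cell receptor genes (0.70) was 0.78 at a limit of 20%, 0.53 with no limit, 0.55 with mitochondrial totals, and without stromal-marked cells 0.62, 0.65 with no limit and 0.57 with weighted cells, and without 1 well 0.69 to 0.70. The sum of T-lineage factors (0.29) was 0.33, 0.15, 0.15, 0.23, 0.24 and 0.20 in the same order, and 0.27 to 0.34 without 1 well. The legacy sum (-0.16) was -0.083 at 20%, -0.21 with no limit, -0.31 with mitochondrial totals, -0.24 with thinned cells and -0.22 without stromal-marked cells and weighted, and -0.17 to -0.15 without 1 well. The sum of ILC and NK factors (0.17) was 0.44 at 20%, 0.017 with mitochondrial totals and 0.10 without stromal-marked cells and with no limit, and 0.15 to 0.21 without 1 well. The share of cells with a Bcl11b UMI was 15.5% and 24.5% at 300 UMIs and 18.7% and 31.8% without thinning, in DN2a and DN2b.

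Stromal genes turned with the filter. Their summed log2 ratio (-1.33) was -2.54 at a limit of 20%, 0.59 with no limit, -1.13 at up to 2000 genes, -1.48 with mitochondrial totals, -1.85 with weighted cells, and without stromal-marked cells -0.040, 0.13 with no limit and -0.14 with weighted cells. The last 3 values follow from the choice of cells, since these same genes marked the cells left out. Leaving out 1 well gave -1.84, without DN2b well 3, to -1.13. With no limit the B-cell list had 0.74, Cd9 0.26, Pdgfrb 0.29, Col4a2 0.69, Col4a1 0.65, Ebf1 0.84, Fstl1 0.75, Fbn1 0.78, Col1a1 0.49, Col3a1 0.72, Sparc 0.52, Col1a2 0.56, Col5a2 0.62, Col6a3 0.44, Itga1 0.64, Cd63 0.36, Col5a1 0.59, Rcn3 0.37, Cdh13 0.61, Ccn1 0.40, Fbln5 0.22, Dkk3 0.52, Ank3 0.70 and Nsg1 0.35. Without stromal-marked cells as well, Ebf1 had 0.086, Cdh13 0.26 and Ank3 0.69. The cause was not tested. Of the 1202 values of 73 called named genes, 1014 stayed within the counting interval, 162 left it in the same direction and 26 changed sign.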
